A study of Mus musculus with 4 samples.

Results

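The 82 genes described here encode subunits of the mitochondrial oxidative phosphorylation machinery, and a few close relatives of them. The rule goes by symbol and uses no measured value, though it was drawn up with earlier results of these data known, and it was applied to the 19935 genes compared. Taken were symbols that begin with Nduf (complex I, 36 genes), Sdha to Sdhd (complex II, 4 genes), Uqcr (complex III, 8 genes), Cox4i to Cox8 (complex IV, 17 genes) and Atp5 (complex V, 17 genes). Symbols of the assembly factors Ndufaf and Sdhaf were left out. A gene's value is the mean of its probe sets, and the 82 genes had 107 of the 21780 probe sets that the platform annotation ties to a single symbol. All 82 were measured and no filter removed any.

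The arrays are Affymetrix Gene 1.0 ST arrays, and the cells are Baf3 (Ba/F3), a mouse pro-B cell line that depends on interleukin-3 (IL-3), grown in RPMI medium with serum to logarithmic phase. Of the 4 samples, 2 (titled A and B) are Baf3 cells in which doxycycline switches on BCR-ABL, a fusion kinase found in chronic myeloid leukaemia; they were kept in 500 ng/ml doxycycline and no IL-3. Another sample is the same kind of cell with 500 ng/ml doxycycline and IL-3. The last is the parental line, grown with IL-3 and, as far as the labels say, with no doxycycline. The study asked which genes BCR-ABL and the growth factor drive, in the context of resistance to imatinib. The labels do not say whether the inducible cells are 1 clone, or whether A and B come from separate cultures, so p-values measure only the spread between these arrays, which may be technical.

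Complexes I to IV form the respiratory chain of the inner mitochondrial membrane. Complex I oxidises NADH and complex II oxidises succinate, both pass electrons through ubiquinone to complex III, cytochrome c carries them to complex IV, and there they reduce oxygen. Complexes I, III and IV pump protons, and complex V, the ATP synthase, lets them flow back to make ATP. The genes measured here are nuclear, and complexes I, III, IV and V also hold subunits encoded by mitochondrial DNA. Proliferating blood cells use this machinery for ATP and for the electron acceptors that nucleotide and aspartate synthesis need.

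The deposited values are differences from the parental array, which stands at 0 for each of the 28815 probe sets, and they are read here as log2. Absolute levels are therefore not known, and 1 transcript cannot be set against another in abundance. Over all 19935 genes the median difference was 0.0044 on A, -0.077 on B and 0.0085 on the array with IL-3. The median gene was thus lower on B, and values after centring each array on its median are given where they change a statement. Neither the purity of the cells nor their type could be read from levels. A probe set is called dim below where its values show that a level under 8 on the array's own log2 scale was stored for it. Relative to A, the median on B was -0.099 for genes with a dim probe set and -0.036 for those with none. For the 82 members it was 0.053. The shift of B was therefore uneven, and centring, which takes the same value off every gene of an array, does not remove it. Of 8 B lineage markers measured (2 with a dim probe set), 0 passed the test below in either comparison, and their differences from the parental array lay between -0.45 and 0.31 on A and between -0.41 and 0.026 on B. Of 5 erythroid markers 4 were lower in the BCR-ABL cells without IL-3, with a list range of -2.83 to -0.34 on A and -3.28 to -0.57 on B, and a range of -3.03 to -0.33 with IL-3. Of 7 mast cell markers 2 were higher and 1 lower, and of 7 neutrophil and monocyte markers 1 was lower. By the same test 5.19% of all genes were higher and 2.87% lower in BCR-ABL cells without IL-3. The part of these markers in the results on subunits was not tested. In bulk RNA, fewer cells with a transcript and less of it per cell cannot be told apart.

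The first comparison asked how the subunits stood where the kinase took the place of the growth factor, in BCR-ABL cells lacking IL-3 (n = 2) relative to the parental line given IL-3 (n = 1). Most subunit transcripts stayed within a narrow band around the parental level and tended to lie slightly above it. The median member stood at 0.10 on A and 0.13 on B, against 0 on the parental array, and at 0.12 for the mean of A and B. Over all genes that median was -0.038, and over the 12751 genes with no dim probe set it was -0.031. The quartiles of the 82 members were 0.0026 and 0.26. Both arrays were above the parental array for 49 of 82 members, where 27.9% of all genes were so. Both were below it for 14, where 42% of all genes were. Of genes with no dim probe set 34.6% were above it on both arrays and 40.9% below. By the mean of A and B, 62 members were above it and 20 below, where 39.3% of all genes were above. After centring 65 members were above and 17 below, where 49.6% of all genes were above.

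Limma, with Benjamini-Hochberg adjustment over all genes, called 3 of 82 members higher at an adjusted p under 0.05, where 5.19% of all genes were called higher. It called 0 members lower, against a background of 2.87%. The share of called subunits was therefore no larger than that of all genes in either direction. At an unadjusted p under 0.05 limma had 14 members higher and 2 lower, against 9.76% and 6.86% of all genes (16.6% in all). Of the genes with no dim probe set, as 79 of the 82 members are, 14.5% were higher and 9.82% lower by that measure, and 7.72% were called higher at an adjusted p under 0.05. At an adjusted p under 0.1 limma had 7 members higher and 1 lower, against 6.51% and 3.82% of all genes. On both arrays 12 members were 25% or more above the parental level (background 7.83%, or 11.7% of genes with no dim probe set), and 1 was 20% or more below it (background 5.09%). At least 1.5-fold above on both was 1 member (background 3.18%), and below were 0 (background 1.73%). The spread behind these tests comes from differences between A and B, mostly pooled over all genes into a prior. That prior has 16.4 degrees of freedom and an SD of 0.128, beside 1 degree of freedom from the gene itself. The SD of B minus A was 0.15 (log2) over the members and 0.20 over all genes. The lone parental array is taken to vary as A and B do. The kinase, the doxycycline, the change of line and the missing IL-3 go together in this comparison and cannot be told apart.

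**Figure D1:**
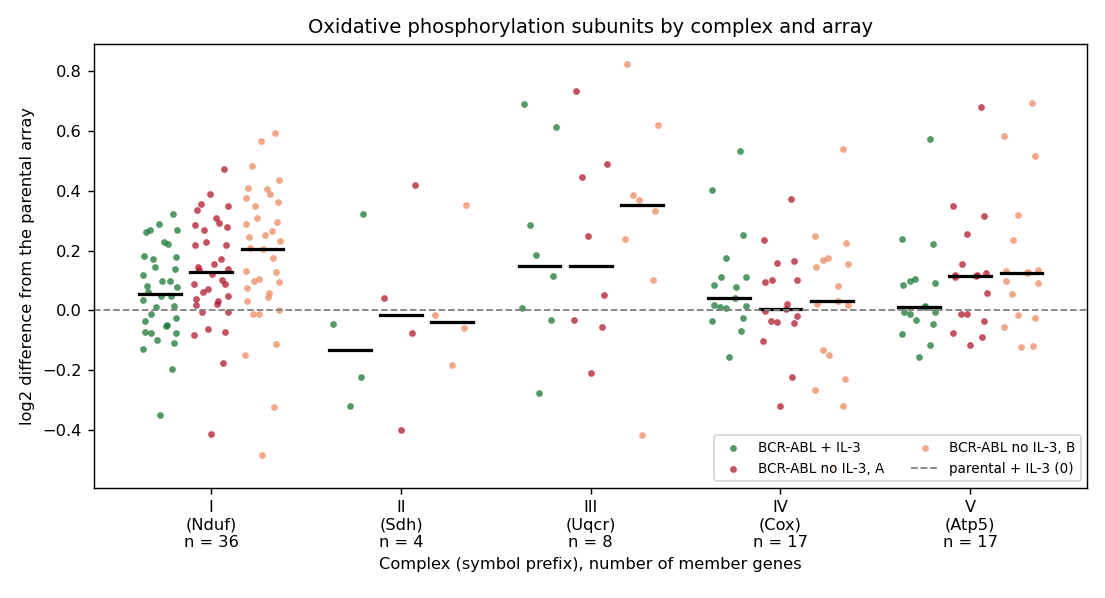
Log2 difference from the parental array (y axis, parental at the dashed line) for each of the 82 member genes, by complex and array; each point is a gene and each bar the median of its complex on that array. Complex III has the highest median on B (0.35). The medians of complex IV lie around 0, as do those of complex II on A and B, while complex II is at -0.13 with IL-3.

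The 3 called members were Uqcr10, Atp5g1 and Uqcrq. Uqcr10, a small membrane subunit of complex III that sits beside cytochrome c1, was at 0.74 on array A and 0.82 on array B, against 0 on the parental array. Both arrays lay well above it, and the difference was 1.72-fold (log2 0.78, SE 0.15, limma adjusted p = 0.00285). Uqcrq, another small complex III subunit, was at 0.45 on array A and 0.62 on array B, which gave 1.45-fold (log2 0.53, SE 0.16, limma adjusted p = 0.0435). Centring the arrays on their medians left its difference at 0.57 but removed the call (limma adjusted p = 0.106), while the other two kept theirs. The prior degrees of freedom of that fit were 5.02. Atp5g1 encodes subunit c, the proton-carrying ring of the ATP synthase. It was at 0.68 on array A and 0.58 on array B, or 1.55-fold (log2 0.63, SE 0.15, limma adjusted p = 0.0136). Its 2 probe sets gave 0.67 and 0.60 for the mean of A and B.

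The genes Atp5g1, Atp5g2 and Atp5g3 all encode subunit c and yield the same mature protein, from precursors with different import sequences. Atp5g2 was at -0.034 on array A and -0.12 on array B, and Atp5g3 at 0.11 on array A and 0.13 on array B. Neither passed the test (95% intervals of the mean difference -0.40 to 0.25 and -0.20 to 0.44), and the difference between these genes was not itself tested. Next below the threshold came Atp5md, a small subunit of the membrane part of the ATP synthase, at 0.35 on array A and 0.69 on array B (limma adjusted p = 0.0709). A and B differed by 0.35 for it, among the 3 widest gaps of all members.

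The promoters of 5 members are printed to show what surrounds the start of the called genes Atp5g1 and Uqcr10, of Atp5g2 as another subunit c gene, and of Ndufb6 and Ndufa6, which lay at opposite ends of complex I. Each window runs from 250 bases before to 50 bases after the gene's start in RefSeq (build GRCm38.p6), 5′ to 3′ on the gene's strand. They lie at chr11:96075582-96075881, minus strand (Atp5g1), chr15:102670998-102671297, minus strand (Atp5g2), chr11:4704295-4704594, minus strand (Uqcr10), chr4:40279372-40279671, minus strand (Ndufb6) and chr15:82354242-82354541, minus strand (Ndufa6). Capitals mark matches, on either strand, to motifs of factors known to act on respiratory genes, namely the NRF1 motif CATGCGC, GABPA CCGGAAG and YY1 AAGATGG, and to the MYC E-box CACGTG.
Atp5g1 promoter: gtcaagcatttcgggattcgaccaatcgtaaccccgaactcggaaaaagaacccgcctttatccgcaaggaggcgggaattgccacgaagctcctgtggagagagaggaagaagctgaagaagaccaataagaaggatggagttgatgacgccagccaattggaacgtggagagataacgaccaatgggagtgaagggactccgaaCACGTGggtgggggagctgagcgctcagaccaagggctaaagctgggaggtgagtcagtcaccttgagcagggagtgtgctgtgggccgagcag
Atp5g2 promoter: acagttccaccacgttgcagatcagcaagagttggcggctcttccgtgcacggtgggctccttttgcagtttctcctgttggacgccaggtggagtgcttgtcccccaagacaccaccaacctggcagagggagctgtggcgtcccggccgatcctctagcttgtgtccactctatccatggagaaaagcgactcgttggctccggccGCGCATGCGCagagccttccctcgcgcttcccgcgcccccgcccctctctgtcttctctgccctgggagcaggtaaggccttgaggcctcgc
Uqcr10 promoter: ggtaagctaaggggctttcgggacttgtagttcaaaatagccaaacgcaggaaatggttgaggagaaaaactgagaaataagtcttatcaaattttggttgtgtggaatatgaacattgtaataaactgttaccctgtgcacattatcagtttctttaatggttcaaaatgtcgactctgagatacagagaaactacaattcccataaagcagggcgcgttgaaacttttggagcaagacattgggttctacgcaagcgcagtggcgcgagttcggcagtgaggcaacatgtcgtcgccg
Ndufb6 promoter: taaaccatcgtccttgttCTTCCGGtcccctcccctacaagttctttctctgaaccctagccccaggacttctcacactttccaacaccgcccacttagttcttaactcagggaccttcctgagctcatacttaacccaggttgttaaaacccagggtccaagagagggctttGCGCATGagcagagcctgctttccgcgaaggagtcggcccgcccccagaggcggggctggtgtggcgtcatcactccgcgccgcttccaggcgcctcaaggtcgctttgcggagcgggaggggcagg
Ndufa6 promoter: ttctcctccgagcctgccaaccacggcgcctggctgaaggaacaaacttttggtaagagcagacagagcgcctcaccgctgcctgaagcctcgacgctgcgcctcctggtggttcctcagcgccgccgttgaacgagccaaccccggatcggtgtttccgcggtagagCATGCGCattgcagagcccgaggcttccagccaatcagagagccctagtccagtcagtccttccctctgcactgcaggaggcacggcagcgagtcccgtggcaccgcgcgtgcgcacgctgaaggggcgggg

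Counted to a motif's first base, Atp5g1 held an E-box 44 bases before the start and none of the other motifs. Atp5g2 held NRF1 motifs on both strands, 39 and 42 bases before the start, which overlap in a palindrome. The Uqcr10 window held none of the 4 motifs. Ndufb6 held an NRF1 motif 77 and a GABPA motif 232 bases before the start, and Ndufa6 an NRF1 motif 82 bases before it. In all, 67 of the 82 members matched a promoter window by gene identifier, and the called member Uqcrq was not among them. The NRF1 motif was in 13 of the 67 (19.4%), against 5.24% of the 15561 genes on the arrays with a window. GABPA motifs were in 23.9% of member windows against 12.5%, YY1 in 13.4% against 6.43% and the E-box in 8.96% against 8.4%, and 6 members held both NRF1 and GABPA motifs. The 13 members with an NRF1 motif had a median difference (mean of A and B minus parental) of 0.32, with a range of -0.45 to 0.48. The other 54 had a median of 0.12, with a range of -0.42 to 0.78. The ranges overlap, Ndufb6 and Ndufa6 mark the ends of the first, and the difference was not tested. NRF1 had the widest gap of the 4 motifs. Medians with and without a match were 0.12 and 0.13 for GABPA and 0.16 and 0.13 for YY1. For the E-box they were 0.20 and 0.13, and for any of the 4 motifs 0.14 and 0.12.

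Complex I had 36 members with a median of 0.15 for the mean of A and B minus parental. Both arrays were above the parental array for 26 of them and below it for 3, and 0 were called. The highest were Ndufab1, the mitochondrial acyl carrier protein that also serves fatty acid and lipoic acid synthesis, at 0.39 on array A and 0.57 on array B, and Ndufb6, an accessory subunit of the membrane arm, at 0.36 on array A and 0.60 on array B. Both arrays stood clearly above the parental level for these genes, with limma adjusted p-values of 0.0763 and 0.0858. The lowest was Ndufa6, an accessory subunit that binds the acyl carrier protein, at -0.41 on array A and -0.49 on array B (1.37-fold lower, limma adjusted p = 0.0912). Ndufab1 and Ndufa6 thus lay on opposite sides of the parental level, and neither passed the test. The core subunits, which carry the flavin and iron-sulphur clusters, had a median of 0.13 over the 6 measured. Among them Ndufs1 was highest at 0.17 on array A and 0.48 on array B, and Ndufs8 was lowest at -0.0054 on array A and 0.044 on array B. The 29 accessory subunits, with Ndufa4 counted among them by its symbol, had a median of 0.17.

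Complex II, succinate dehydrogenase, had 4 members and no call. Sdhb, the iron-sulphur subunit, was at 0.42 on array A and 0.35 on array B, above the parental level on both arrays (1.31-fold, limma adjusted p = 0.168). Sdha, the flavoprotein that oxidises succinate, was at -0.40 on array A and -0.061 on array B. A lay below the parental level and B close to it, and the arrays differed by 0.34. The membrane anchors Sdhc and Sdhd had means of 0.014 and -0.13.

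Complex III had the highest median of the 5 complexes, 0.23, and 2 of the 3 calls. Below Uqcr10 and Uqcrq came Uqcr11, a further small subunit, at 0.49 on array A and 0.37 on array B, and the core protein Uqcrc1 at 0.25 on array A and 0.39 on array B. Its partner in the matrix-facing core, Uqcrc2, was at -0.033 on array A and 0.10 on array B, and the Rieske iron-sulphur protein Uqcrfs1 at 0.051 on array A and 0.24 on array B. Uqcrh, the acidic hinge protein that helps cytochrome c dock, was the 1 member of the complex below the parental level on both arrays, at -0.21 on array A and -0.42 on array B (95% interval -0.65 to 0.021). Uqcrb showed the widest gap between A and B of all 82 members, at -0.057 on array A and 0.33 on array B, and its 3 probe sets differed from each other by at most 0.11 on any array. Cytochrome c1 (Cyc1), whose symbol falls outside the rule, was at 0.63 on array A and 0.83 on array B and was called higher (1.66-fold, limma adjusted p = 0.00577). Cytochrome c (Cycs), the carrier that complex III reduces, was at 0.64 on array A and 0.83 on array B and was called too, from a dim probe set (1.66-fold, limma adjusted p = 0.00549).

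Complex IV, cytochrome c oxidase, had a median of 0.059 over 17 members (0.10 after centring) and no call. Cox5a, a matrix-facing subunit, was highest at 0.37 on array A and 0.54 on array B (1.37-fold, limma adjusted p = 0.0947), and Cox6a1, the form of subunit 6a found in most tissues, came next at 0.24 on array A and 0.25 on array B. The 9 broadly expressed subunits had a median of 0.10, with B above the parental level for all 9 and A for 6. Ndufa4, counted here with complex I by its symbol but now known as a subunit of complex IV, was at 0.29 on array A and 0.30 on array B. Cox7a2l, which links complexes III and IV into supercomplexes, was at -0.10 on array A and -0.13 on array B.

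In complex V, the ATP synthase, the median was 0.12 over 17 members. The 5 subunits of the F1 sector had a median of 0.04, and the 12 other members 0.12. Of the F1 sector, the catalytic beta subunit Atp5b was at 0.12 on array A and 0.24 on array B. The epsilon subunit Atp5e, lowest of the complex, was at -0.091 on array A and -0.12 on array B. Of the membrane part, subunit g (Atp5l) was at 0.26 on array A and 0.52 on array B, with 6 probe sets within 0.10 of each other on every array. Subunit e (Atp5k) was at 0.31 on array A and -0.025 on array B, so that A alone stood above the parental level.

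**Figure D2:**
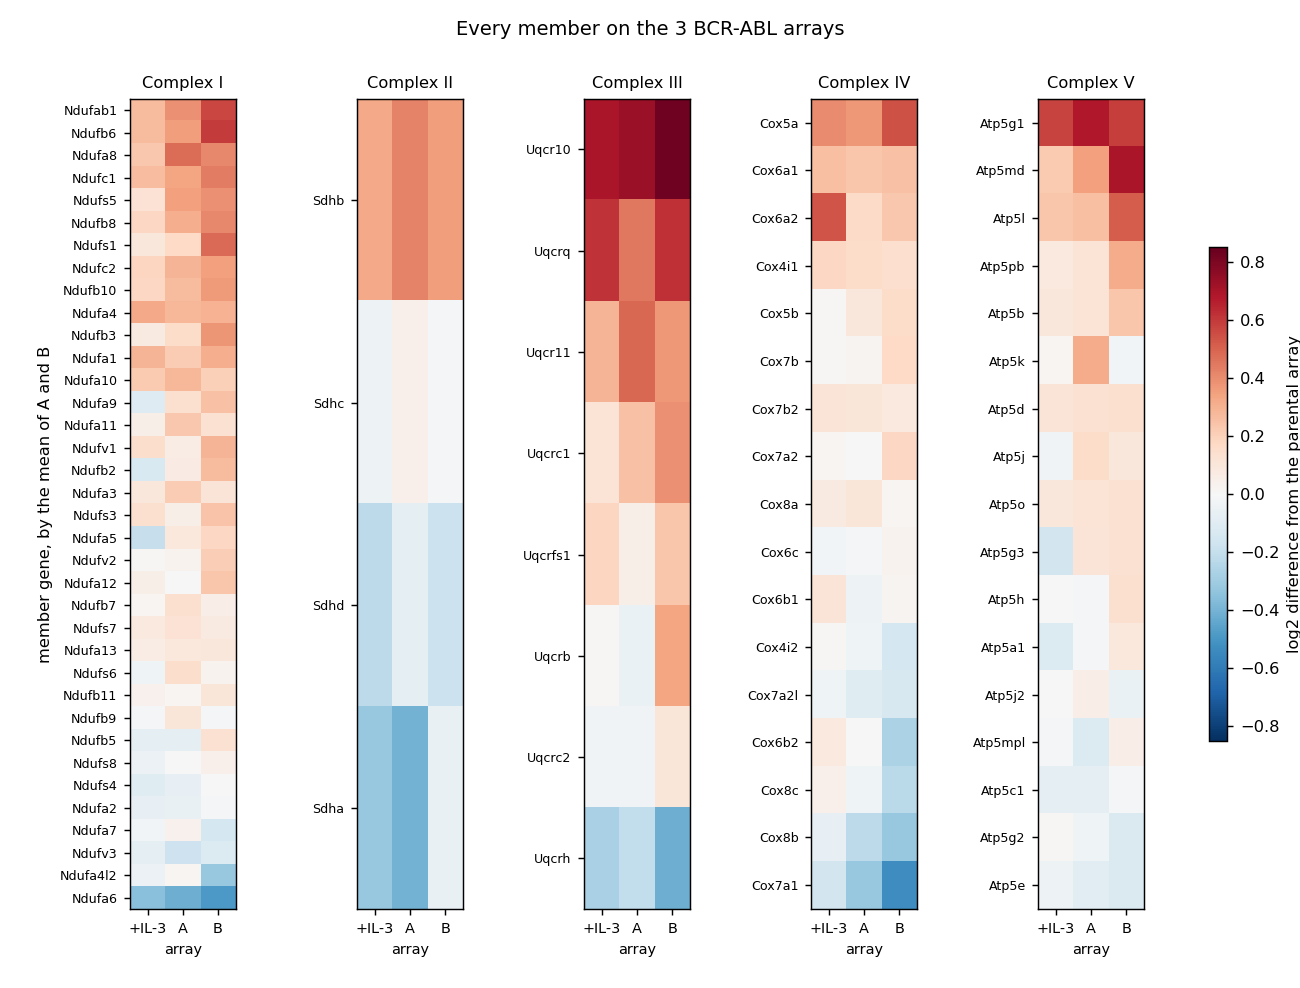
Every member gene as a row, by complex, on the array with IL-3, A and B (columns); colour is the log2 difference from the parental array, red higher and blue lower. Genes run from the highest to the lowest mean of A and B; Uqcr10 heads complex III at 0.78 and Ndufa6 ends complex I at -0.45.

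**Figure D3:**
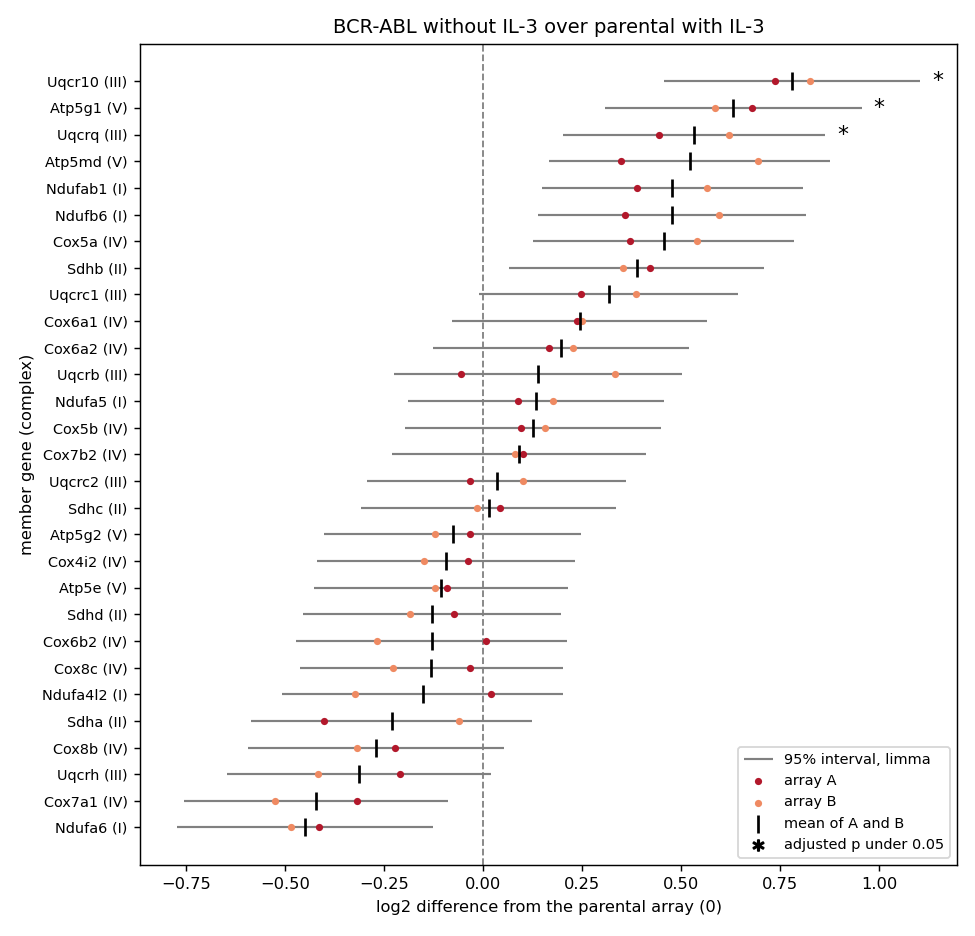
Log2 difference from the parental array (x axis) for 29 members picked by a fixed naming rule (rows), with both BCR-ABL arrays without IL-3 as points, their mean as a tick and the limma 95% interval as a line. Stars mark Uqcr10, Atp5g1 and Uqcrq, the 3 with an adjusted p under 0.05.

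Of the 8 forms that are known from particular tissues none was called, and their values were spread around the parental level. These are Cox4i2 (lung), Cox6a2, Cox7a1 and Cox8b (heart and skeletal muscle), Cox6b2, Cox7b2 and Cox8c (testis) and Ndufa4l2, a relative of Ndufa4 that hypoxia induces. Their median was -0.13 for the mean of A and B minus parental, and 2 of 8 were above 0, where 39.3% of all genes and 30.5% of genes with a dim probe set were. On B the median was -0.25, and on A it was -0.014, with 4 of 8 above 0. Cox7a1 was lowest at -0.32 on array A and -0.53 on array B, against -0.00092 and 0.17 for Cox7a2, its counterpart in most tissues. Cox8b was at -0.22 on array A and -0.32 on array B, and Ndufa4l2 at 0.018 on array A and -0.32 on array B. The means were -0.094 for Cox4i2, -0.13 for Cox6b2 and -0.13 for Cox8c. Cox6a2 and Cox7b2 were above the parental level on both arrays, with means of 0.20 and 0.091. Ndufa4l2, Cox6b2 and Cox7b2 were the 3 members with a dim probe set. The other forms are not thereby shown to lie well above background, since the mark can miss a stored number under 8. Over the 7184 genes with such a probe set the median was -0.043 for the mean of A and B, 0.0043 for A and -0.095 for B. Heart and skeletal muscle markers had a median of 0.034 (8 genes, 3 with a dim probe set) and testis markers -0.031 (6 genes, 3 with a dim probe set), and 0 of either list were called by limma.

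The second comparison concerns the growth factor while the kinase is on, with BCR-ABL plus IL-3 (n = 1) set beside BCR-ABL alone (n = 2). Subunit transcripts lay slightly lower with IL-3. The median of the members' differences (array with IL-3 minus mean of A and B) was -0.064, where that of all genes was 0.034. Over genes with no dim probe set the median was 0.014. The member median was -0.025 against A alone and -0.066 against B alone, and -0.11 after centring. Genes with no dim probe set had medians of -0.0069 against A alone and 0.029 against B alone. The array with IL-3 was below both A and B for 42 of 82 members, where 25.5% of all genes were, and above both for 16, where 39.9% were. Of genes with no dim probe set 32.4% were below both and 35.1% above both. Limma called 0 members higher and 0 lower, against 0.00502% and 0% of all genes. At an unadjusted p under 0.05 it had Cox6a2 higher and Ndufa5 lower, where 1.52% and 3% of all genes passed (4.52% in all), and robust empirical Bayes called 0 too. At an adjusted p under 0.1 limma had 0 members higher and 0 lower, against 0.01% and 0% of all genes. Members 25% or more above both A and B, or 20% or more below both, numbered 0, where 0.798% and 1.36% of all genes were. At 1.5-fold the backgrounds were 0.0752% higher and 0.0401% lower. A and B enter both comparisons, with opposite sign. In sign alone, 58 members were below the mean of A and B and 24 above it. Of all genes 60.6% were above it, and of those with no dim probe set 53.4%. After centring 68 members were below and 14 above, where 46.7% of all genes were above.

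Ndufa5, an accessory subunit of the matrix arm of complex I, was at -0.20 with IL-3, against 0.089 on A and 0.18 on B without it, so that the array with IL-3 was the 1 array below the parental level (log2 difference -0.33, SE 0.15, limma adjusted p = 0.9998, unadjusted p = 0.0473). Atp5md was at 0.22 with IL-3, against 0.35 on A and 0.69 on B without it, a difference of -0.30 from their mean. Atp5g3, one of the subunit c genes, was at -0.16 with IL-3, against 0.11 on A and 0.13 on B without it, and its difference from their mean was -0.28. The widest difference upwards in complex V was that of Atp5g2 (0.09), which was at 0.012 with IL-3, against -0.034 on A and -0.12 on B without it. In complex III the lowest difference was that of the core protein Uqcrc1 (-0.20), at 0.11 with IL-3, against 0.25 on A and 0.39 on B without it. In complex IV it was that of Cox5b (-0.11), at 0.011 with IL-3, against 0.10 on A and 0.16 on B without it. The array with IL-3 lay below both A and B for each of these genes but Atp5g2. In complex II all 4 members lay below the mean of A and B, with differences of -0.059 to -0.092, and that of Sdhd was lowest. The medians by complex were -0.076 for I, -0.076 for II, -0.077 for III, 0.024 for IV and -0.066 for V. After each array was centred they were -0.12, -0.12, -0.12, -0.02 and -0.11, in the same order, so that complex IV changed sign.

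At the high end stood Cox6a2, the heart and muscle form of subunit 6a, at 0.53 with IL-3, against 0.17 on A and 0.23 on B without it (log2 difference 0.34, SE 0.15, limma adjusted p = 0.9998, unadjusted p = 0.042). Its counterpart in most tissues, Cox6a1, was at 0.25 with IL-3, against 0.24 on A and 0.25 on B without it. For Cox6a1 the 3 arrays lay together. Cox7a1 was at -0.16 with IL-3, against -0.32 on A and -0.53 on B without it. Cox8b was at -0.069 with IL-3, against -0.22 on A and -0.32 on B without it. Cox6b2 was at 0.085 with IL-3, against 0.0058 on A and -0.27 on B without it. All 8 tissue-restricted forms were above the mean of A and B, with a median of 0.19, though Cox7b2 turned below it after centring. Above it were also 60.6% of all genes, 73.5% of genes with a dim probe set, whose median was 0.054, and all 8 heart and skeletal muscle markers, whose median was 0.064. For the 8 tissue-restricted forms B lay at -0.15 relative to A in the median, and against A alone the median with IL-3 was 0.077. The 3 called members of the first comparison lay near the arrays without IL-3. Uqcr10 was at 0.69 with IL-3, against 0.74 on A and 0.82 on B without it. Uqcrq was at 0.61 with IL-3, against 0.45 on A and 0.62 on B without it, and thus between them. Atp5g1 was at 0.57 with IL-3, against 0.68 on A and 0.58 on B without it. The 95% intervals of the difference were -0.41 to 0.24 for Uqcr10, -0.25 to 0.41 for Uqcrq and -0.38 to 0.27 for Atp5g1, so differences of that size cannot be told from none here.

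**Figure D4:**
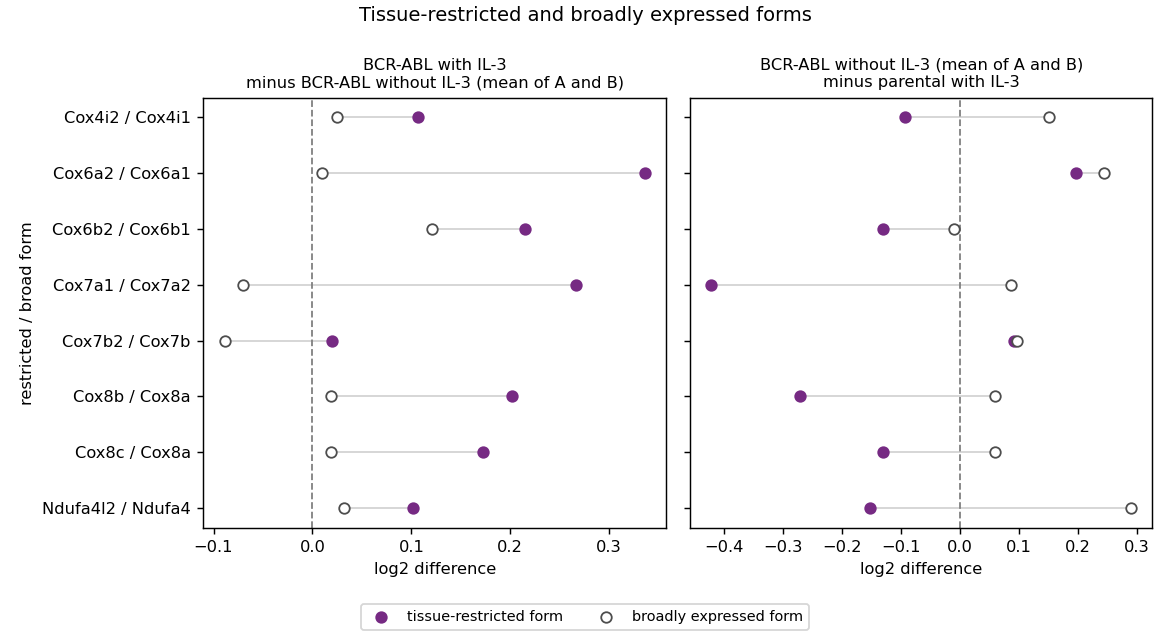
Tissue-restricted forms (filled) beside their broadly expressed counterparts (open); the left panel gives BCR-ABL with IL-3 minus BCR-ABL without it, and the right panel BCR-ABL without IL-3 minus parental, both as log2 differences with A and B averaged. Cox7a1 shows the widest separation on the right (-0.42 against 0.087 for Cox7a2), and Cox6a2 is highest on the left (0.34).

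In the third comparison both cultures had IL-3, and BCR-ABL plus IL-3 (n = 1) was set beside the parental line (n = 1). The growth factor is shared, while BCR-ABL, doxycycline and the derived line differ. With 1 array a group the difference has no replicate check of its own, and it is given without a test. The median member was at 0.044, where all genes were at 0.0085. Above the parental array were 52 of 82 members (background 52.6%) and below it 30 (background 47.4%). At 25% or more above were 7 members, where 8.17% of all genes were. They were Uqcr10, Uqcrq, Atp5g1, Cox6a2, Cox5a, Sdhb and Ndufa4, from 0.69 for Uqcr10 to 0.32 for Ndufa4. The 1 member 20% or more below was Ndufa6 at -0.35 (background 8.18%). At least 1.5-fold higher were Uqcr10 and Uqcrq (background 3.3%), and none was lower by that much (background 2.53%). This array thus put Uqcr10, Uqcrq and Ndufa6 on the same side of the parental level as A and B did, with the parental array shared by both comparisons.

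Other mitochondrial genes were read from the same fit. Of the assembly factors, which build the complexes without staying in them, 5 of 43 were called higher in BCR-ABL cells without IL-3 and 0 lower, where 5.19% of all genes and 7.72% of those with no dim probe set were called higher, and the list median was 0.21. They were Ecsit, a complex I assembly protein also known from innate immune signalling, at 0.96 on array A and 1.13 on array B (2.06-fold, limma adjusted p = 0.000256), Cox18 (0.84), which inserts a complex IV subunit into the membrane, Sdhaf1 (0.76), which serves the iron-sulphur subunit of complex II, Ndufaf4 (0.61) and Lrpprc (0.61), which stabilises mitochondrial messages. Of 22 genes of mitochondrial protein import and folding 9 were called higher and 0 lower, with a median of 0.39. Timm8a1, a chaperone of the intermembrane space, had 2.38-fold the parental level (SE 0.19 on the log2 scale, limma adjusted p = 0.000228) and the chaperonin Hspd1 2.12-fold (SE 0.17, limma adjusted p = 0.000357). Of 77 mitochondrial ribosomal protein genes 14 were called higher and 0 lower, with a median of 0.31, among them Mrps18b at 0.92 on array A and 0.90 on array B. Of 15 TCA cycle genes 1 was called higher, the NAD-linked isocitrate dehydrogenase subunit Idh3a at 0.84 on array A and 1.10 on array B, with a list median of 0.30, and that count is near the share of all genes. These medians stand beside 0.12 for the 82 subunits and -0.038 for all genes. The lists were not tested against each other.

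Of 16 regulators of mitochondrial gene expression 2 were called higher and 0 lower in BCR-ABL cells without IL-3. Of all genes 5.19% were called higher and 2.87% lower, and of those with no dim probe set 7.72% were called higher. Pprc1, a coactivator of the PGC-1 family that growth signals induce, was at 0.83 on array A and 0.60 on array B (1.64-fold, limma adjusted p = 0.00773), and the mitochondrial rRNA methyltransferase Tfb1m at 0.50 on array A and 0.76 on array B (1.55-fold). The relatives of Pprc1, Ppargc1a and Ppargc1b, were at -0.0017 and 0.24 for the mean of A and B, and did not pass. The transcription factors Nrf1, Gabpa and Esrra were at 0.067, -0.17 and -0.042, and Myc at 0.18, with no call. Tfam, which packages and transcribes mitochondrial DNA, was at -0.063 on array A and 0.48 on array B, so A and B disagreed in sign. With IL-3 against without it, limma called 0 genes of any of these lists at an adjusted p under 0.05, and the medians were -0.12 for assembly factors, -0.17 for import, -0.15 for mitochondrial ribosomal proteins and -0.064 for the subunits.

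**Figure D5:**
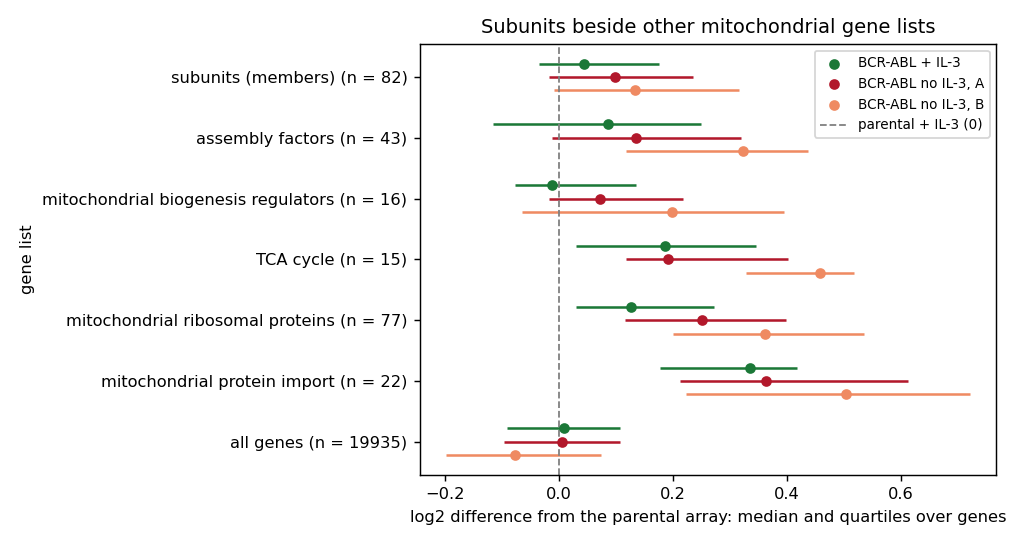
Median (point) and quartiles (line) over genes of the log2 difference from the parental array, for the subunits, 5 other mitochondrial gene lists and all genes, on each BCR-ABL array. On every array the median of the import list lies above that of the subunits, with 0.36 against 0.10 on A and 0.50 against 0.13 on B.

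Probe sets of the same gene gave close values. Of the 82 members 17 had several probe sets, and the widest range of their differences on any array was 0.16 (log2), for Atp5pb. Subunit genes of this kind often have processed pseudogene copies, and probe sets of the same symbol may share sequence with them, so that such copies cannot be told apart from the parent gene.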

How the data were processed

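Total RNA of 4 samples was converted to biotin-labelled sense-strand cDNA and hybridised to Gene 1.0 ST arrays, per the labels' protocols. The authors deposited log2 values relative to the parental sample, a reading that rests on the numbers themselves; background correction, normalization and probe summary are not given in the sources used here. Base 2 was inferred, since 99.8% of all non-zero entries fall on multiples (within their printed digits) of 2 raised to minus 21, the step of single-precision numbers between 4 and 8. An odd multiple means a stored number below 8 on some array (probe set called dim, 11021 of 28815). Numbers below 8 can give even multiples too, so the dim class is incomplete. Signal over background was not analysed here.

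The platform annotation gave 1 symbol to 21780, several to 1605 and none to 5430; 998 of the 19935 genes had several probe sets. Limma (version 3.58.1, R 4.3.3) fitted 3 group means on all 4 arrays, leaving 1 residual degree of freedom beside 16.4 from the empirical Bayes prior, whose SD was 0.128. P-values (two-sided) were adjusted over all genes by Benjamini-Hochberg and called at an adjusted p under 0.05. The code of the fit was run on simulated data with independent noise of equal spread on all 4 arrays. That run cannot show how the fit fares with a shifted array, or where A and B are technical repeats. The number of arrays limits the precision. The design meant absolute levels; because the values are differences, dim probe sets stand in for a level filter, as an alternative only. Promoter sequences are RefSeq's (GRCm38.p6), matched by gene identifier.

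Named members are those called, the 2 highest and 2 lowest of each complex without IL-3, the highest and lowest with IL-3, the tissue-restricted forms and the 3 with the widest gap between A and B; of other lists, called genes (at most 4 a list by size) and 8 regulators. Other genes named in passing, the fifth called assembly factor among them, were chosen after their values were seen. Members and lists were chosen with earlier results of these data known.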

Additional observations from a re-analysis of the deposited data

How the results depend on the processing

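For BCR-ABL without IL-3 over parental, 3 members were called higher and 0 lower; the counts were 2 and 0 after centring each array on its median, 4 and 0 over probe sets, 3 and 0 without dim probe sets or with robust empirical Bayes, and 7 and 1 at an adjusted p under 0.1, where 6.51% and 3.82% of all genes passed. Over all genes, centring each array changed the prior to 5.02 degrees of freedom. With IL-3 over without it the counts were 0 and 0 under each of these. The member median of 0.12 in the first comparison ranged from 0.10 with A alone to 0.16 after centring. In the second, -0.064 became -0.11 after centring and ranged from -0.066 without array A to -0.025 without array B. In the third it was 0.036 to 0.073 across its alternatives. Leaving out A or B leaves no residual degree of freedom, so no test; members at least 1.5-fold higher than parental were 4 without A and 2 without B, against 2 for their mean. Of the calls of single members, that of Uqcrq alone was lost, under centring, where its difference was 0.57 against 0.53. Centring turned the sign of 3 members in the first comparison (Atp5mpl, Cox6b1 and Ndufs4) and of 10 in the second. No paired analysis was possible because the labels give no replicate shared between groups. Signal over background was not known, so its effect on low probe sets could be followed only through the dim class.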

Other observations

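The annotation gives several symbols to 6 probe sets with a subunit name among them, which stayed out of the 82 genes. The 3 that name Cox7c, a complex IV subunit, together with Gm12338 stood at -0.031 to 0.015 on A and 0.17 to 0.22 on B, relative to the parental array. The 2 that name Ndufb4 and Ndufb4b, of complex I, stood at 0.26 to 0.30 on A and 0.38 to 0.44 on B. The 1 that names Ndufs5 and its pseudogene was at 0.41 on A and 0.69 on B, and 0.20 with IL-3, where the probe set of Ndufs5 alone, which is a member, was at 0.35 on A and 0.39 on B, and 0.12 with IL-3.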
